A study of Homo sapiens with 8 samples.

Results

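Translation initiation factor genes were compared between HCT116 p53+/+ cells treated with 1 µM MANIO for 24 hours and the same cells given the solvent DMSO for 24 hours. HCT116 is an established human colon carcinoma line, and p53+/+ marks its form with wild-type p53. MANIO is described here only by its code name. The series asked whether the compound engages the p53 response in transcripts. Each group held 4 libraries, which the submitters describe as biological replicates, and all came from a single cell line. The genes were chosen by symbol alone: those that begin with EIF and a digit, without the EIF2AK kinases, the EIF4EBP binding proteins, EIF1AY and numbered pseudogenes. The rule reads symbols only. It gave 51 of the 58302 genes in the deposited table of read counts, among them 3 non-coding genes named after a neighbouring factor.

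Initiation brings a ribosome and an initiator tRNA to the start codon of an mRNA. The factor eIF2 carries the initiator tRNA with GTP, and eIF2B recharges eIF2 with GTP after each round. Stress kinases phosphorylate the eIF2 alpha subunit, which turns eIF2 into an inhibitor of eIF2B and lowers protein synthesis, the core of the integrated stress response. The large complex eIF3 binds the small ribosomal subunit, while eIF1, eIF1A and eIF5 govern the choice of the start codon. The cap-binding protein eIF4E, the helicase eIF4A and the scaffold eIF4G form eIF4F, which recruits the mRNA, and eIF5B joins the ribosomal subunits. In tumour cells eIF4E is a well-known point of control downstream of the kinase mTOR.

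The libraries held 27945196 to 32509020 counts each. Mitochondrially encoded genes took 6.70% to 7.62% of the counts in the MANIO libraries and 4.82% to 5.21% in DMSO replicates 2 to 4, while DMSO replicate 1 stood apart at 7.48%. The epithelial markers EPCAM, CDH1, KRT8, KRT18 and KRT19 were present in every library (CDH1, the lowest of them, at 95.03 CPM or more), and VIL1 was nearly absent at 0.335 CPM or less. Of 8 markers of other cell types, 6 stayed at or below 0.140 CPM, VWF reached 1.07 CPM, and COL1A1 reached 46.6 CPM. The group medians of COL1A1, CDH1, KRT8, KRT18 and KRT19 were 41.5, 128, 2134, 937 and 977 CPM in MANIO and 22.2, 103, 1641, 702 and 732 CPM in DMSO. Those of EPCAM and VWF ran the other way, at 277 and 0.304 CPM in MANIO and 296 and 0.709 CPM in DMSO. The part of these markers and of the mitochondrial share in the results was not tested. Levels are CPM, the counts of a gene relative to the library total, with TMM (trimmed mean of M-values) scaling.

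Most initiation factor transcripts moved little. Of 51 members, 48 had enough counts to be tested, and 23 of these were called in edgeR's quasi-likelihood test at an adjusted p under 0.05: 7 were higher and 16 lower in MANIO. That is 47.9% of the tested members, below the 54.6% called among all 15712 tested genes, of which 27.8% had higher and 26.8% lower levels in MANIO. A total of 36 tested members averaged at least 50 CPM, and 44.4% of them were called, against 59.1% of the 4807 genes at that level (25.1% up and 33.9% down). Groups lay fully apart for 20 of the 48 members, and for 48.3% of all tested genes.

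The changes were also small. The median absolute log2 fold change was 0.12 among the members, 0.19 among genes of at least 50 CPM and 0.26 among all tested genes. Called changes of at least 1.2-fold were found for 12 of the 48 members and for 42% of all tested genes, and those of at least 1.5-fold for 2 members and 18% of all tested genes. The median signed log2 fold change was -0.063 for the members and 0.0043 for all tested genes. Together the members took 1.17 ± 0.0180% of the counts in MANIO and 1.23 ± 0.0251% in DMSO (SD, n = 4 each), and the highest MANIO library, at 1.19%, lay below the lowest DMSO library, at 1.21%. As a sum, this share is set mostly by the abundant members and does not describe each gene. The total also includes the mitochondrially encoded genes, which took 7.08 ± 0.400% in MANIO and 5.64 ± 1.23% in DMSO.

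**Figure D1:**
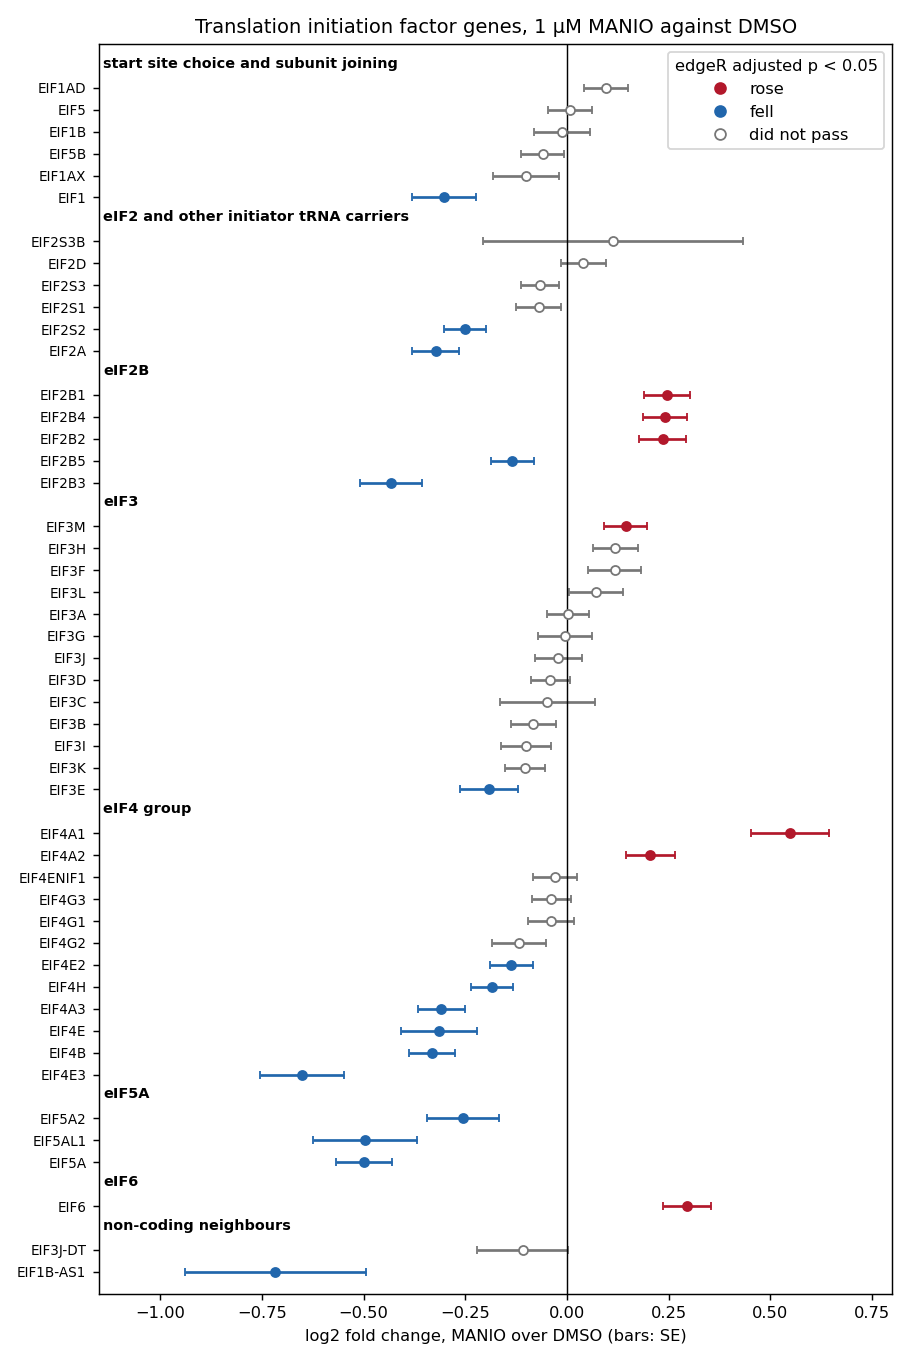
Log2 fold change (MANIO over DMSO) of the 48 tested members, grouped by complex, with bars for the SE. Filled red points rose, filled blue points fell and open points did not pass edgeR's adjusted p of 0.05: all 5 eIF2B subunits are filled, while 11 of 13 eIF3 genes are open. Among all 15712 tested genes 54.6% were called.

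**Figure D2:**
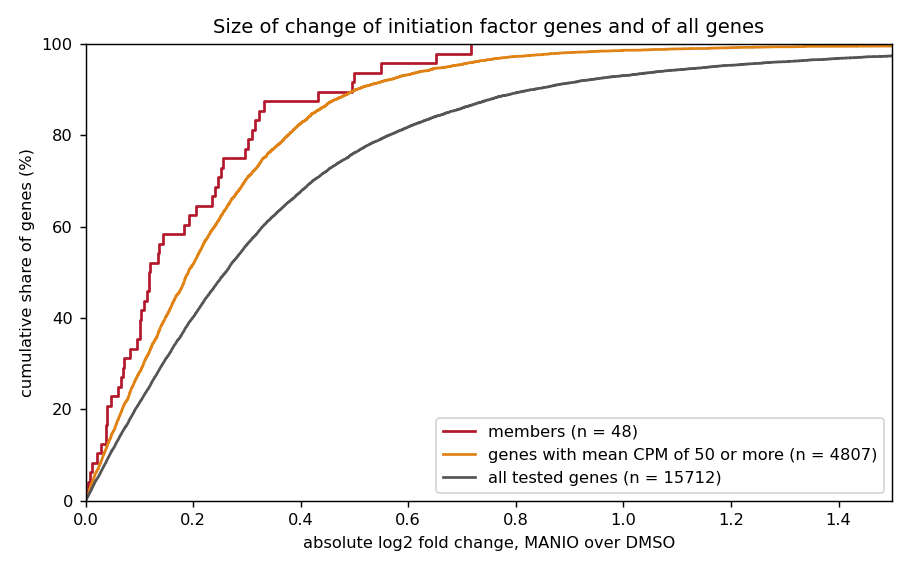
Cumulative share of genes against the absolute log2 fold change, for the 48 members, for 4807 genes with a mean of at least 50 CPM and for all 15712 tested genes. The curve of the members lies to the left over most of its range, with medians of 0.12, 0.19 and 0.26.

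The eIF2B genes were the only complex of more than 3 tested genes in which every member was called (5 of 5, against 54.6% of all tested genes). All 3 eIF5A genes and EIF6 were also called. The eIF2B subunits moved in both directions. EIF2B1, EIF2B2 and EIF2B4 encode the alpha, beta and delta subunits, which form the regulatory part that binds phosphorylated eIF2. EIF2B1 had 56.5, 59.5, 58.3 and 58.9 CPM in MANIO replicates 1 to 4, against 46.5, 52.6, 50.7 and 46.7 CPM in DMSO replicates 1 to 4. EIF2B2 had 48.6, 49.6, 49.1 and 47.8 CPM in MANIO replicates 1 to 4, against 39.4, 43.7, 43.5 and 39.1 CPM in DMSO replicates 1 to 4. EIF2B4 had 67.7, 66.0, 65.7 and 66.1 CPM in MANIO replicates 1 to 4, against 52.6, 60.0, 56.3 and 55.8 CPM in DMSO replicates 1 to 4. For each of the 3 genes every MANIO library exceeded every DMSO library, and the rises were nearly equal: 0.25 (SE 0.0571, edgeR adjusted p = 0.00192) for EIF2B1, 0.24 (SE 0.0542, edgeR adjusted p = 0.00153) for EIF2B4 and 0.24 (SE 0.0574, edgeR adjusted p = 0.0028) for EIF2B2 on the log2 scale.

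The catalytic part of eIF2B went the other way. EIF2B3, the gamma subunit, had 16.0, 16.2, 16.6 and 16.1 CPM in MANIO replicates 1 to 4, against 24.5, 23.2, 20.3 and 19.7 CPM in DMSO replicates 1 to 4. The 4 MANIO libraries lay within 0.62 CPM of each other and below every DMSO library (log2 fold change -0.43, SE 0.0753, edgeR adjusted p = 1.9e-04). EIF2B5, the epsilon subunit that carries the exchange activity, had 80.3, 77.7, 74.5 and 78.4 CPM in MANIO replicates 1 to 4, against 83.4, 90.1, 86.5 and 81.2 CPM in DMSO replicates 1 to 4, and the groups did not overlap. Its fall was small (log2 fold change -0.13, SE 0.0526, edgeR adjusted p = 0.0413), and the call was lost without MANIO replicate 2 (adjusted p = 0.0868), MANIO replicate 3 (0.123), DMSO replicate 2 (0.127) or DMSO replicate 3 (0.0904) in edgeR. Per kb of exon, EIF2B3 had the lowest level of the 5 subunits, 4.76 ± 0.0783 CPM per kb in MANIO and 6.43 ± 0.672 CPM per kb in DMSO, and EIF2B1 the highest, 16.1 ± 0.362 CPM per kb in MANIO and 13.5 ± 0.834 CPM per kb in DMSO (SD, n = 4 each). EIF2B3 spans 136 kb, and the other subunit genes span 6.14 to 13.4 kb. Exons of genes on the other strand cover 23.6% of the exonic bases of EIF2B2, 15.6% of those of EIF2B1 and 10.2% of those of EIF2B3; the kit (TruSeq RNA) does not mark strand, so such reads cannot be told apart.

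**Figure D3:**
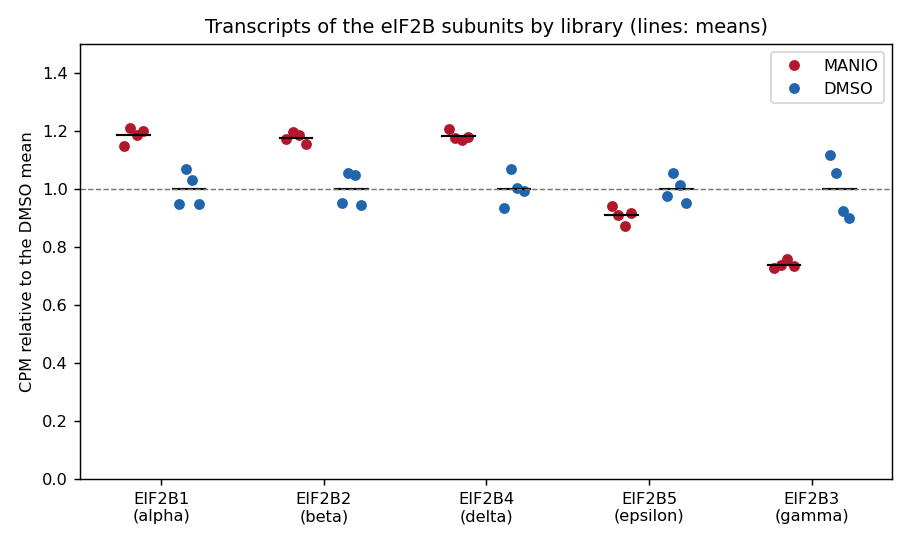
Level of each eIF2B subunit transcript in every library, as CPM divided by the DMSO mean of that gene, with MANIO left of DMSO and lines at the means. The MANIO points of EIF2B1, EIF2B2 and EIF2B4 lie above, and those of EIF2B5 and EIF2B3 below, every DMSO point of the same gene.

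The promoters of the 5 eIF2B genes are printed because the subunits of this complex moved apart. They are RefSeq sequences on GRCh38.p14, from 250 bases before to 50 bases after the gene start, written 5′ to 3′ on the strand of the gene. EIF2B1 lies at chr12:123633637-123633936 (minus strand), EIF2B2 at chr14:75002671-75002970 (plus strand), EIF2B4 at chr2:27370289-27370588 (minus strand), EIF2B3 at chr1:44986546-44986845 (minus strand) and EIF2B5 at chr3:184135108-184135407 (plus strand). Capitals mark matches, on either strand, to the E-box CACGTG, which MYC can bind, and to the motif CCGGAAG of ETS factors; the motifs do not overlap each other here.
EIF2B1: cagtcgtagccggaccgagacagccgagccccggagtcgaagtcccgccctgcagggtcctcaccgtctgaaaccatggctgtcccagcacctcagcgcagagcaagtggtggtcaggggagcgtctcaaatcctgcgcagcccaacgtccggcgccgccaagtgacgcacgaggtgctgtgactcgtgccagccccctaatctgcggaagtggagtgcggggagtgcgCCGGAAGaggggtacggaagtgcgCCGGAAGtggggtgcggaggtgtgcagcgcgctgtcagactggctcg
EIF2B2: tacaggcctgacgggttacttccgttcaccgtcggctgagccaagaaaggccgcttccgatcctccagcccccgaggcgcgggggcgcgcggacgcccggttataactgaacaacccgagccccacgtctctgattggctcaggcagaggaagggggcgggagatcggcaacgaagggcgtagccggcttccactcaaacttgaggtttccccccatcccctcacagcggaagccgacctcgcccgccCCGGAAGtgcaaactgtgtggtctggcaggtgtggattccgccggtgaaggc
EIF2B4: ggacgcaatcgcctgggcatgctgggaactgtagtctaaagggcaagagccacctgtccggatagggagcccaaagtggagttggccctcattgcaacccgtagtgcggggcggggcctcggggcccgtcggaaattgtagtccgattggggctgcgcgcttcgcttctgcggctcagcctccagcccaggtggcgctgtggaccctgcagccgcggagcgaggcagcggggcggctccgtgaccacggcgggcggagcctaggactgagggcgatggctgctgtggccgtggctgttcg
EIF2B3: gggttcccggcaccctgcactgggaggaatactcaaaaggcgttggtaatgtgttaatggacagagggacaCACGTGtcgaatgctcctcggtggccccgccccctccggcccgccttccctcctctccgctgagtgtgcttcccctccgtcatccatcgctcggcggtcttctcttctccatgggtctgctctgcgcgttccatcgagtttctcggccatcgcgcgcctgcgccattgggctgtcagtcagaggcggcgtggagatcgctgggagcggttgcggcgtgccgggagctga
EIF2B5: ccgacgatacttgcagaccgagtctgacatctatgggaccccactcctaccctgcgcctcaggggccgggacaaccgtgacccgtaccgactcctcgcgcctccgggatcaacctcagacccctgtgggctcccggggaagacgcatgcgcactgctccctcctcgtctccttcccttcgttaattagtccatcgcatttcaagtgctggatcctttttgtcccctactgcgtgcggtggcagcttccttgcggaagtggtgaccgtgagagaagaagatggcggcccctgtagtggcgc
The EIF2B1 window held 2 ETS matches and the EIF2B2 window held 1, the EIF2B3 window held 1 E-box, and the windows of EIF2B4 and EIF2B5 held neither motif.

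Promoter windows were available for 44 of the 51 members. The members without one were EIF2S2, EIF3A, EIF3CL, EIF3E, EIF3G, EIF3H and EIF3L. The E-box was present in 11 of the 44 windows (25.0%), against 7.26% of 35116 promoters of the same length, and the ETS motif in 10 (22.7%), against 10.3%. Most of those promoters belong to genes not tested here. Among the 10645 tested genes with a window the E-box was present in 10.2% and the ETS motif in 18.8%, and among the 42 tested members with one in 26.2% and 23.8%, so for the ETS motif the members lay near the tested genes. All 11 members with an E-box window were tested: 7 fell, none rose (0) and 4 did not pass. Their median log2 fold change was -0.26. The 7 that fell were EIF2B3, EIF4A3, EIF4B, EIF4E, EIF4H, EIF5A2 and EIF1B-AS1, and the others were EIF1B, EIF3F, EIF3K and EIF4G1. EIF1B and EIF1B-AS1 start head to head, and their windows hold the same E-box. Among the 31 tested members with a window but no E-box, 7 rose and 7 fell, with a median of -0.048. Over all tested genes with a window, 24.9% rose and 30.9% fell among the 1082 genes with the motif, and 27.6% rose and 30.3% fell among the 9563 without it. Of the 10 members with the ETS motif, 4 rose (EIF2B1, EIF2B2, EIF3M and EIF6) and 3 fell (EIF2A, EIF4E2 and EIF5A2), and of the 32 tested members without it 3 rose and 11 fell. Over all tested genes with a window, 24.8% rose and 29.3% fell among the 2003 with the ETS motif, and 27.9% rose and 30.5% fell among the 8642 without it. The full p53 binding site, allowing no mismatch and a spacer of at most 13 bases, was found in 0 of the 44 windows and in 0.0285% of all promoters. So rare a match is hardly to be found in 44 windows, so the 0 cannot show whether members lack p53 sites. The GC box GGGCGG of SP1 was found in 68.2% of the members' windows and 45.0% of all promoters, and CCAAT in 38.6% and 34.6%; among tested genes with a window the shares were 69.0% of members and 70.2% of all genes for GGGCGG, and 38.1% and 36.7% for CCAAT. The CRE (TGACGTCA) and the ATF4 element TGATGCAA were in 0 of the 44 windows, and in 1.85% and 0.866% of all promoters (3.09% and 0.46% among tested genes with a window). A match is a description of the letters in the window and no measure of binding.

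Of the eIF2 genes themselves, EIF2S2 (the beta subunit) fell, while EIF2S1 and EIF2S3 did not pass. EIF2S1 encodes the alpha subunit that stress kinases phosphorylate, and it had 208, 223, 211 and 221 CPM in MANIO replicates 1 to 4, against 244, 227, 227 and 208 CPM in DMSO replicates 1 to 4. The groups overlapped (log2 fold change -0.069, SE 0.0555, edgeR adjusted p = 0.308). EIF2S2 averaged 164 ± 7.85 CPM in MANIO and 195 ± 5.96 CPM in DMSO (SD, n = 4 each), without overlap (log2 fold change -0.25, SE 0.0514, edgeR adjusted p = 7.5e-04), and the gamma subunit gene EIF2S3 had a log2 fold change of -0.067 (SE 0.0468), with groups that lay apart though it did not pass. In EIF2S2 29.2% and in EIF2S3 29.8% of the 31-base words of the transcripts also occur in transcripts of other genes, mainly copies of the same gene, so part of their reads could have been assigned elsewhere. EIF2S3B, such a copy, was tested on 7 to 13 counts per library and did not pass.

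EIF2A and EIF2D encode factors that can deliver initiator tRNA without eIF2. EIF2A had 161, 158, 156 and 177 CPM in MANIO replicates 1 to 4, against 221, 201, 199 and 195 CPM in DMSO replicates 1 to 4, so that every MANIO library lay below every DMSO library (log2 fold change -0.32, SE 0.0578, edgeR adjusted p = 2.5e-04). EIF2D did not pass (log2 fold change 0.041, SE 0.0549, edgeR adjusted p = 0.555).

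Few of the 13 tested eIF3 genes passed the test (15.4%, against 54.6% of all tested genes). EIF3M rose, EIF3E fell and 11 did not pass, and log2 fold changes ran from -0.19 to 0.14 with a median of -0.021. EIF3A, the largest scaffold subunit, had 828, 831, 831 and 862 CPM in MANIO replicates 1 to 4, against 882, 805, 846 and 809.6 CPM in DMSO replicates 1 to 4. Its groups overlapped and its log2 fold change was 0.0035 (SE 0.0518), a value whose sign turned under other scalings. EIF3M had 264, 274, 259.98 and 293 CPM in MANIO replicates 1 to 4, against 257, 246, 242 and 242 CPM in DMSO replicates 1 to 4, without overlap (log2 fold change 0.14, SE 0.0524, edgeR adjusted p = 0.029). EIF3E had 767, 747, 761 and 870.4 CPM in MANIO replicates 1 to 4, against 1026, 864, 849.7 and 854 CPM in DMSO replicates 1 to 4, and MANIO replicate 4 lay above 3 DMSO libraries (log2 fold change -0.19, SE 0.0709, edgeR adjusted p = 0.0316).

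Neither of these calls was firm. In edgeR the call of EIF3M was lost without MANIO replicate 2 (adjusted p = 0.0650) or 4 (0.0812), or without DMSO replicate 2 (0.0589), 3 (0.0806) or 4 (0.0803). The call of EIF3E was lost without MANIO replicate 1 (0.0756), 2 (0.0956) or 3 (0.0786), or without DMSO replicate 1 (0.0997), the library with the high mitochondrial share. Both EIF3F and EIF3H passed when certain libraries were left out: EIF3F (log2 fold change 0.12) without MANIO replicate 4 (0.0486) or DMSO replicate 2 (0.0415), and EIF3H (0.12) without MANIO replicate 3 (0.0425) or DMSO replicate 1 (0.0499).

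EIF3C had 429 to 667 counts per library, and per kb of exon its MANIO level was 2.42 CPM, below the other 12 tested eIF3 genes, which ranged from 17.7 (EIF3F) to 186 (EIF3I) CPM per kb in MANIO. Of the 31-base words of its transcripts 48.4% also occur in other genes, mainly in EIF3CL, a near-identical copy that had 1 to 6 counts and was not tested. The level of EIF3C is therefore uncertain, and its log2 fold change of -0.048 (SE 0.116) did not pass. In EIF3L 51.8% of the exonic bases lie in exons of other genes on either strand, and it did not pass either (0.072).

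Among the factors of start site choice and subunit joining, EIF1 alone was called. EIF1, which keeps the scanning ribosome open until the start codon is found, had 404, 392, 337 and 344 CPM in MANIO replicates 1 to 4, against 488, 503, 415 and 416 CPM in DMSO replicates 1 to 4. It fell without overlap of the groups (log2 fold change -0.30, SE 0.0775, edgeR adjusted p = 0.00406), and within both groups replicates 1 and 2 lay above replicates 3 and 4. Its paralogue EIF1B did not pass (log2 fold change -0.013, SE 0.0692, edgeR adjusted p = 0.89). EIF1B held 13.1 ± 2.01% of the summed CPM per kb of both genes in MANIO and 10.9 ± 1.06% in DMSO, and the groups overlapped. EIF1AX (-0.10), EIF5 (0.0082) and EIF5B (-0.060), the GTPase of subunit joining, did not pass. EIF1AD (0.10), a member by its symbol whose part in initiation was not tested here, did not pass either.

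In the eIF4 group 8 of 12 tested genes were called (66.7%, against 54.6% of all tested genes), 2 higher and 6 lower, while the scaffold genes were not. The helicase gene EIF4A2 had 550.04, 514, 564 and 603 CPM in MANIO replicates 1 to 4, against 522, 458, 471 and 483 CPM in DMSO replicates 1 to 4. DMSO replicate 1 lay above the lowest MANIO library, so the groups overlapped (log2 fold change 0.21, SE 0.0608, edgeR adjusted p = 0.0099). EIF4A1, the other helicase gene of eIF4F, had 19.5, 16.2, 16.4 and 13.8 CPM in MANIO replicates 1 to 4, against 11.8, 11.9, 10.98 and 10.4 CPM in DMSO replicates 1 to 4, with every MANIO library above every DMSO library (log2 fold change 0.55, SE 0.0955, edgeR adjusted p = 1.9e-04).

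Both the level and the change of EIF4A1 in these counts are uncertain. EIF4A1 had only 293 to 616 counts per library, and 48.6% of its exonic bases lie in exons of other genes on the same strand. Among these is the read-through gene SENP3-EIF4A1 (7 to 30 counts), which rose too (log2 fold change 0.81, edgeR adjusted p = 0.0239). How far these overlaps bear on the rise of EIF4A1 was not tested. EIF4A2 held 96.7 ± 0.569% of the summed CPM per kb of EIF4A1 and EIF4A2 in MANIO and 97.4 ± 0.208% in DMSO (SD, n = 4 each). That share rests on the part of EIF4A1 that was counted. EIF4A3, the related helicase of the exon junction complex, fell (log2 fold change -0.31, SE 0.0573, edgeR adjusted p = 3.3e-04) and averaged 205 ± 11.7 CPM in MANIO and 254 ± 13.8 CPM in DMSO.

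The 3 tested cap-binding genes fell. EIF4E had 58.5, 60.9, 70.9 and 79.5 CPM in MANIO replicates 1 to 4, against 79.0, 75.3, 90.8 and 90.4 CPM in DMSO replicates 1 to 4. Within both groups replicates 3 and 4 were higher than replicates 1 and 2, and the groups overlapped (log2 fold change -0.31, SE 0.0943, edgeR adjusted p = 0.0122). EIF4E3, a cap-binding relative of EIF4E, had 9.35, 9.51, 8.54 and 11.4 CPM in MANIO replicates 1 to 4, against 17.2, 13.7, 13.5 and 16.6 CPM in DMSO replicates 1 to 4. Every MANIO library lay below every DMSO library. EIF4E3 fell 1.57-fold (log2 fold change -0.65, SE 0.103, edgeR adjusted p = 7.9e-05), the largest fall among the coding members. EIF4E2, the homologue that represses translation, averaged 65.9 ± 3.06 CPM in MANIO and 72.4 ± 1.68 CPM in DMSO (log2 fold change -0.14, SE 0.0528, edgeR adjusted p = 0.0396), but 6 of the 8 edgeR fits with 1 library left out lost the call: without MANIO replicate 1 (0.0854), 2 (0.142) or 3 (0.0601), or DMSO replicate 1 (0.0533), 3 (0.105) or 4 (0.0582). EIF4E1B had 8 to 19 counts and was not tested, and EIF4ENIF1, the transporter of eIF4E, did not pass (-0.029).

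Of the helicase partners, EIF4B had 867, 789, 844 and 891 CPM in MANIO replicates 1 to 4, against 1123, 1001, 1071 and 1073 CPM in DMSO replicates 1 to 4, without overlap (log2 fold change -0.33, SE 0.0574, edgeR adjusted p = 1.8e-04). EIF4B was also among the more abundant members, at 138 ± 7.13 CPM per kb in MANIO and 174 ± 8.12 CPM per kb in DMSO, but 36.3% of its 31-base words occur in other genes' transcripts, most of all in the pseudogene EIF4BP6 (18.9%). EIF4H, which resembles it, fell too (log2 fold change -0.18, SE 0.0520, edgeR adjusted p = 0.00757). The scaffold gene EIF4G1 had 654, 673, 668 and 627 CPM in MANIO replicates 1 to 4, against 626, 718, 694 and 654 CPM in DMSO replicates 1 to 4, and its groups overlapped (log2 fold change -0.038, SE 0.0561, edgeR adjusted p = 0.587). EIF4G3 (-0.038) and EIF4G2 (-0.12) did not pass, and EIF4G3 held 9.46 ± 0.469% of the summed CPM per kb of EIF4G1 and EIF4G3 in MANIO and 9.48 ± 0.617% in DMSO.

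The eIF5A genes fell. EIF5A encodes a factor that carries the modified lysine hypusine and helps ribosomes through difficult stretches of the coding sequence, mostly in elongation. It had 652, 685, 621 and 564 CPM in MANIO replicates 1 to 4, against 857, 969, 914 and 823 CPM in DMSO replicates 1 to 4. Every MANIO library lay below every DMSO library, and the fall was 1.41-fold (log2 fold change -0.50, SE 0.0685, edgeR adjusted p = 2.2e-05), the smallest p among the members. Per kb it was the most abundant member, at 224 ± 18.2 CPM per kb in MANIO and 316 ± 22.8 CPM per kb in DMSO. EIF5A2 averaged 17.8 ± 2.40 CPM in MANIO and 21.2 ± 1.32 CPM in DMSO (log2 fold change -0.26, SE 0.0889, edgeR adjusted p = 0.0238), with overlapping groups, and lost its call in edgeR without MANIO replicate 1 (adjusted p = 0.0808), DMSO replicate 3 (0.0767) or DMSO replicate 4 (0.0518).

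EIF5AL1, a near-identical copy of EIF5A on chromosome 10, had 28.4, 32.5, 38.2 and 34.6 CPM in MANIO replicates 1 to 4, against 37.2, 42.5, 56.9 and 51.7 CPM in DMSO replicates 1 to 4 (log2 fold change -0.50, SE 0.128, edgeR adjusted p = 0.00652). Its groups overlapped. The coding sequences of both genes, 465 bases long, differ at 5 bases and are 98.9% identical. Bases 74 to 133 of the coding sequence, from GENCODE 29 transcripts, are shown because reads from such a stretch separate the genes only at the 3 differing bases, which are in capitals. EIF5A lies at chr17:7306999-7312463 and EIF5AL1 at chr10:79512601-79516440, both on the plus strand of GRCh38.
EIF5A: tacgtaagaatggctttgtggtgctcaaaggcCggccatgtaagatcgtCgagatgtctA
EIF5AL1: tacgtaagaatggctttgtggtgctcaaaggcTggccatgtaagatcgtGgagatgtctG
How much of the EIF5AL1 count came from EIF5A transcripts was not tested.

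EIF6, which binds the large ribosomal subunit and keeps it from joining early, rose. It had 135, 137, 135 and 126 CPM in MANIO replicates 1 to 4, against 98.8, 117, 113 and 105 CPM in DMSO replicates 1 to 4, and its lowest MANIO library exceeded its highest DMSO library. The rise was 1.23-fold (log2 fold change 0.30, SE 0.0586, edgeR adjusted p = 5.6e-04), the next largest after that of EIF4A1. In EIF6 17.4% of the exonic bases lie in exons of another gene, which itself had 1 to 7 counts.

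**Figure D4:**
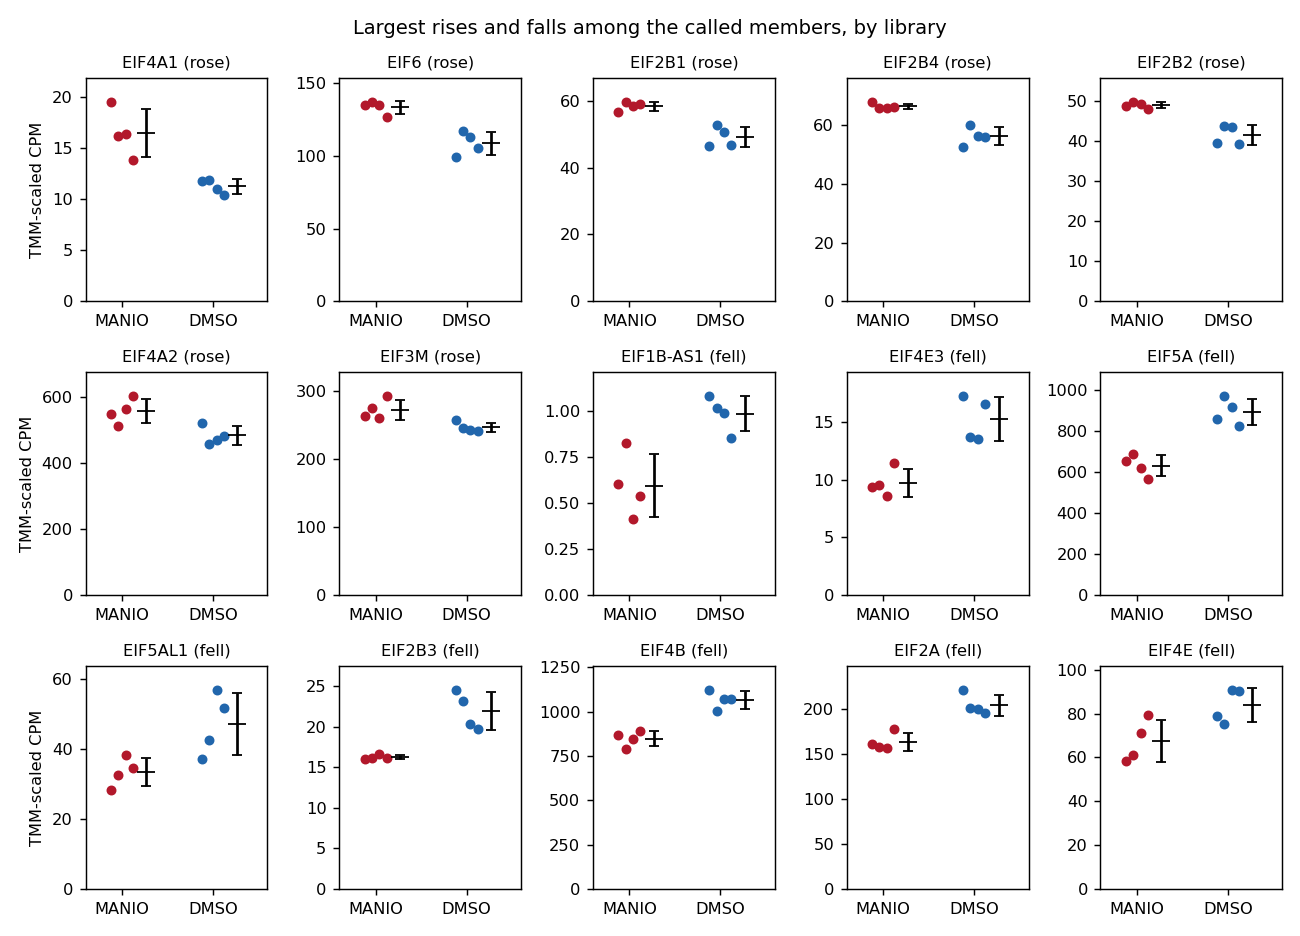
TMM-scaled CPM in each of the 4 MANIO (red, left) and 4 DMSO (blue, right) libraries for the 7 members that rose and the 8 with the largest falls, with the mean and SD in black; the y axes start at 0 and differ between panels. The groups overlap for EIF4A2, EIF5AL1 and EIF4E and lie apart for the other 12 genes.

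Of the 3 non-coding genes, EIF1B-AS1 fell, EIF3J-DT did not pass and EIF1AX-AS1 had 0 counts in every library. EIF1B-AS1 rested on 13 to 31 counts per library and had 0.602, 0.823, 0.411 and 0.538 CPM in MANIO replicates 1 to 4, against 1.08, 1.01, 0.986 and 0.853 CPM in DMSO replicates 1 to 4, without overlap (log2 fold change -0.72, SE 0.222, edgeR adjusted p = 0.0129). EIF3J-DT had a log2 fold change of -0.11 (SE 0.112). Of the exonic bases of EIF1B-AS1 3.15% lie in exons of genes on the other strand.

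Gene span was set beside the changes. Among the 2652 tested genes that span 100 kb or more, 45.1% fell and 19.0% rose, while among the 4264 under 10 kb 19.7% fell and 26.6% rose. Of the 5 members of 100 kb or more, 3 fell (EIF2B3, EIF1B-AS1 and EIF3E), 0 rose and 2 did not pass (EIF3H and EIF4G3, the longest at 371 kb). Of the 13 members under 10 kb, 5 rose and 3 fell, and EIF5A, with its large fall, spans 5.47 kb. Spearman's rho between span and log2 fold change was -0.23 across the 48 members, given as a description, since the genes share the same 8 libraries.

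**Figure D5:**
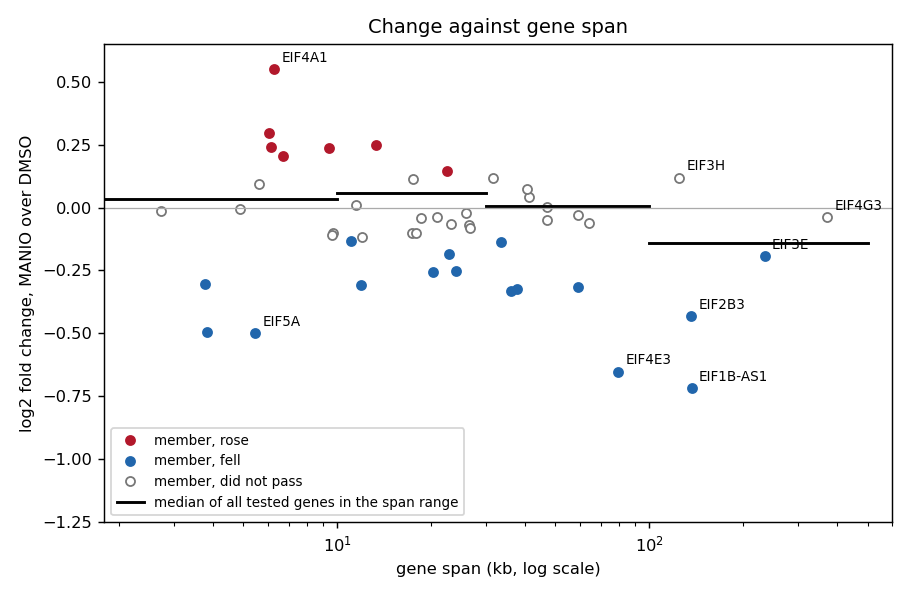
Log2 fold change (MANIO over DMSO) of the 48 tested members against gene span in kb (log scale), with black lines at the median of all tested genes in each of 4 span ranges. The 7 members that rose span under 30 kb, and the median line of genes of 100 kb or more lies at -0.14.

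Genes that act on these factors were called about as often as all genes. Of 29 tested initiation control genes, 7 rose, 8 fell and 14 did not pass, a share of 51.7% called, near the 54.6% of all tested genes (27.8% up and 26.8% down). PDCD4, the inhibitor of the eIF4A helicase, had 104, 104, 110.2 and 123 CPM in MANIO replicates 1 to 4, against 72.2, 60.4, 66.5 and 69.8 CPM in DMSO replicates 1 to 4, without overlap (log2 fold change 0.71, SE 0.0685, edgeR adjusted p = 6.0e-07). Of the exonic bases of PDCD4 29.5% lie in exons of other genes on either strand. MKNK1, a kinase of eIF4E, rose (log2 fold change 0.40, SE 0.0574, edgeR adjusted p = 3.1e-05), as did PPP1R15A, the stress-induced subunit of the phosphatase that acts on eIF2 alpha (log2 fold change 0.45, SE 0.0671, edgeR adjusted p = 4.3e-05). EIF4EBP1, the repressor that competes with eIF4G for eIF4E, had 47.2, 47.0, 54.6 and 43.5 CPM in MANIO replicates 1 to 4, against 57.5, 67.6, 73.6 and 67.7 CPM in DMSO replicates 1 to 4, and fell without overlap (log2 fold change -0.47, SE 0.0802, edgeR adjusted p = 1.6e-04). RPTOR, an mTORC1 subunit whose gene spans 422 kb, fell by 0.38 and PAIP1, a partner of the poly(A)-binding protein, by 0.34 on the log2 scale (edgeR adjusted p = 3.7e-04 and 1.6e-04). Of the eIF2 kinases, EIF2AK4 rose (0.17) and EIF2AK1 fell (-0.13), while EIF2AK2 and EIF2AK3 did not pass. The count of 8 falls became 5 without MANIO replicate 2, MANIO replicate 3 or DMSO replicate 2.

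Later steps of translation were set beside these. Of 12 tested genes listed under elongation and termination, 1 rose, 4 fell and 7 did not pass (41.7% called, against 54.6% of all tested genes). The list includes the enzymes that modify eIF5A, so not every gene in it is an elongation or termination factor. DHPS, the enzyme that starts hypusine formation on eIF5A, had 61.2, 58.0, 60.1 and 57.7 CPM in MANIO replicates 1 to 4, against 80.6, 83.1, 82.6 and 79.9 CPM in DMSO replicates 1 to 4, and every MANIO library lay below every DMSO library (log2 fold change -0.46, SE 0.0498, edgeR adjusted p = 2.0e-06); 41.8% of its exonic bases lie in exons of other genes on either strand. DOHH, the enzyme that completes hypusine, did not pass (log2 fold change 0.22, SE 0.127, edgeR adjusted p = 0.159). EEF1A2 rose (log2 fold change 0.66, SE 0.0709, edgeR adjusted p = 2.0e-06), while EEFSEC, the selenocysteine elongation factor whose gene spans 255.2 kb (-0.72), EEF1E1 (-0.38) and EEF1A1 (-0.26) fell. The count of 1 rise became 2 without MANIO replicate 4. EEF1G was listed at 0 counts in every library, and 99.9% of its exonic bases lie in exons of another gene. Of 9 mitochondrial translation factors, GFM2 rose (0.25), MTIF3 (-0.41), MTIF2 (-0.18) and MTRF1 (-0.21) fell, and 5 did not pass (44.4% called, against the same 54.6%). MTIF2 and MTIF3 are the initiation factors of that system.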

How the data were processed

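The authors deposited raw read counts for 58302 Ensembl genes in 8 libraries, as the whole-number values and the file headers show. FastQC 1.3, HTSeq, DESeq2, STAR 2.5.3a and the build GRCh38 appear in the submitters' processing notes without their roles. Not given in the sources used here: the gene annotation, and how reads mapping to several places or to either strand were counted. Totals per library exceed the raw read number in the labels, for a reason not given there. Counts were analysed in R 4.3.3 with edgeR 4.0.16: filterByExpr left 15712 genes, libraries were scaled by TMM, and group differences were tested with the robust quasi-likelihood F test and Benjamini-Hochberg adjustment over all tested genes, called at an adjusted p under 0.05. Log2 fold changes are MANIO over DMSO, and SEs come from the F statistic. With 4 libraries a group, p-values set the group difference against the variation between these libraries, estimated with information from all tested genes. All libraries come from 1 line.

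Spans, exon overlaps, lengths and shared 31-base words came from GENCODE 29 on GRCh38. The members and lists, and the level of 50 CPM, were chosen with earlier results of these data known. Values in every library are given for the 7 members that rose, the 8 largest falls and 8 fixed members. From the other lists, up to 3 called genes of smallest p in each direction are named. Of these, only PDCD4, EIF4EBP1 and DHPS have values in every library. EIF1, DOHH, EEF1A1, the eIF2 kinases and others were named to account for the rest. Chi-square per degree of freedom between libraries of one group ran from 3.57 to 23.8, more than sampling noise gives, and no library repeated another. The test was checked on simulated counts. Of 50 genes changed at each size it recovered 32% at 1.2-fold, 64% at 1.5-fold and 88% at 2-fold. Of its 156 calls there, 15 were false. The changed genes were a small part of the 15577 simulated, while 54.6% of the real tested genes were called. The adjusted p works at a different cut-off under such unlike shares, so the rates do not carry over directly. How far they hold for the real counts was not tested. Alternatives were DESeq2 1.42.0, other scalings, no filter, a 1.2-fold limit, a replicate block and leaving out each library.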

Additional observations from a re-analysis of the deposited data

Results flagged for a closer look

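In groups of 4 libraries, 5 values stood apart from the other 3 of their group, out of 104 groups checked, and chance alone marks about 1 group in 20. For EIF3E, DMSO replicate 1 had 1026 CPM, against 850 to 864 CPM in the other DMSO libraries, and MANIO replicate 4 had 870.4 CPM, against 747 to 767 CPM in the other MANIO libraries. For EIF3A, MANIO replicate 4 had 862 CPM, against 828 to 831 CPM. For EIF5B, DMSO replicate 2 had 304 CPM, against 278 to 279 CPM. The mitochondrially encoded share of DMSO replicate 1 was 7.48%, against 4.82% to 5.21% in the other DMSO libraries.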

How the results depend on the processing

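Of the 23 calls among the members, 18 (6 rises and 12 falls) were kept in all 8 fits that left out 1 library, and the number called ranged from 19 to 23 there; DESeq2 and both other scalings gave 23, and no filter on low counts 20, which lost EIF2B5 (adjusted p = 0.0593), EIF3M (0.108) and EIF4E2 (0.060). Against a 1.2-fold limit (glmTreat), 4 members were called, 1 higher (EIF4A1) and 3 lower (EIF4E3, EIF5A and EIF2B3), and over all genes 4132, 2302 higher and 1830 lower. That limit left 4 initiation control genes (3 higher, 1 lower), 3 elongation and termination genes (2 lower) and 1 mitochondrial factor (0 higher, 1 lower). Rises among elongation and termination genes numbered 2 with no filter and 1 to 2 with 1 library left out, and falls among initiation control genes 5 to 11. Without the members that share over 20% of their exons or words with other genes in all, an alternative chosen after seeing the data, 16 of 37 tested members were called (5 higher, 11 lower).

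The replicate numbers of the titles were not taken as pairs in the main fit. Same-numbered deviations correlated at -0.011, 0.23, 0.25 and 0.12, and not every library correlated best with its own number. MANIO replicates 1, 3 and 4 correlated best with DMSO replicates 2 (0.41), 4 (0.37) and 1 (0.36), and MANIO replicate 2 with its own number. What the libraries of both groups share was not tested. With the replicate block 24 members and 8845 genes were called; EIF3H (adjusted p = 0.0425) and EIF4G2 (0.0472) passed and EIF2B5 (0.0516) did not.

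Log2 fold changes near 0 that turned sign belonged to uncalled members. EIF3A was -0.00098 with DESeq2 and with its size factors in edgeR, -0.0099 with upper-quartile scaling and -0.013 with no filter, and EIF5 was -0.0053 and -0.0083 under the last 2. Leaving out 1 library gave -0.015 to 0.029 for EIF3A, -0.028 to 0.033 for EIF5, -0.060 to 0.048 for EIF1B, -0.0066 to 0.33 for EIF2S3B, -0.0058 to 0.060 for EIF2D, -0.15 to 0.044 for EIF3C, -0.062 to 0.026 for EIF3G and -0.071 to 0.017 for EIF3J. The causes were not tested. Among tested members depth limits EIF2S3B and EIF1B-AS1 most, at 7 to 31 counts per library.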
